A study of Homo sapiens with 10 samples.

Results

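10 genes of the endoplasmic reticulum (ER) stress response were followed in PC-3 cells exposed to luteolin, gefitinib or both. They were HSPA5, HSP90B1, DNAJB9, DNAJC3, SDF2L1, PDIA4, HERPUD1, EDEM1, CALR and XBP1. A spot belonged to the set if the scanner file gave it one of these 10 gene names, which selected 14 probes with 1 spot each, out of 41000 probes that name 28090 genes on the array. PC-3 is an established, hormone-insensitive line from a human prostate cancer metastasis. Luteolin is a plant flavonoid, and gefitinib inhibits the tyrosine kinase of the epidermal growth factor receptor. Total RNA was labelled with Cy3 and hybridized to 10 single-colour arrays, with 5 conditions of 2 arrays each. One pair came from cells before treatment (0 h). The remaining cells were collected at 24 h, after the solvent DMSO, luteolin at 60 µM, gefitinib at the same dose, or both drugs together at those doses. Both drugs were dissolved in DMSO, so the drug-treated cells carried the solvent as well. All groups were the same line and carried no engineered allele. The labels call the 2 arrays of a group biological replicates without saying whether they came from separate cultures, so the p-values below measure only the spread between these arrays, and their small number limits the precision.

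Proteins that enter the secretory pathway fold inside the ER with the help of chaperones. When unfolded proteins accumulate there, sensors in the ER membrane start the unfolded protein response. The sensor IRE1, encoded by ERN1, splices XBP1 mRNA to yield an active transcription factor, ATF6 is cut to release another factor, and PERK, encoded by EIF2AK3, slows translation and favours that of ATF4. XBP1 and ATF6 raise chaperones, folding enzymes and the machinery that returns misfolded proteins to the cytosol for degradation (ER-associated degradation, ERAD). The array measured the amount of each mRNA and did not separate spliced from unspliced XBP1.

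Promoters of such genes are known for the ER stress response element, read as CCAAT, 9 bases of any kind and CCACG. A shorter form, ERSE-II, is read as ATTGG, 1 base of any kind and CCACG. Both were searched on both strands in the 250 bases before each RefSeq transcription start of the GRCh38.p14 assembly. The 10 genes had 12 such windows, since PDIA4 and XBP1 had 2 starts each. The longer element was found at HSPA5, HSP90B1, CALR and XBP1, that is at 4 of the 10 genes. Among all genes, these included, it was at 25 of 27305 (0.0916%), in 26 of 35116 windows (0.074%). ERSE-II was found at SDF2L1 and HERPUD1, and at 18 of 27305 genes (0.0659%) when all are counted, in 18 windows (0.0513%). The unfolded protein response element, TGACG directly followed by TGG, was in none of the 12 windows and in 0.612% of all windows. DNAJB9, DNAJC3, PDIA4 and EDEM1 held none of the 3 motifs in these windows, which says only that those letters were not there. 5 windows are printed 5′ to 3′ on the strand of the gene, ending at the base before the start site, with the matched motif in capitals. HSPA5, HSP90B1, XBP1 and HERPUD1 are shown because their mRNAs were raised in 1 or more drug-treated groups, and SDF2L1 because its level stayed close to that of the controls although the window held a motif. They lie at chr9:125241344-125241593 (minus strand), chr12:103930160-103930409 (plus strand), chr22:28800570-28800819 (minus strand), chr16:56931892-56932141 (plus strand) and chr22:21642052-21642301 (plus strand).
HSPA5: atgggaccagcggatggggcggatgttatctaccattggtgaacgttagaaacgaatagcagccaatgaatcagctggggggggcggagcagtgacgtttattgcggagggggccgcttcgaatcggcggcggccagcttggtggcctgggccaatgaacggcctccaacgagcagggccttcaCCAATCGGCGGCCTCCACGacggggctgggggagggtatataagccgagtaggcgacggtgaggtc
HSP90B1: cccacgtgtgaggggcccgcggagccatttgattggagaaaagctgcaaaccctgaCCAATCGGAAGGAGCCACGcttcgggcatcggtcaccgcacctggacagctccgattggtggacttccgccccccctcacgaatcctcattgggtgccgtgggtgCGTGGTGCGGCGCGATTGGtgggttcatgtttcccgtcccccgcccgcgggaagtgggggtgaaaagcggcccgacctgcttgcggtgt
XBP1: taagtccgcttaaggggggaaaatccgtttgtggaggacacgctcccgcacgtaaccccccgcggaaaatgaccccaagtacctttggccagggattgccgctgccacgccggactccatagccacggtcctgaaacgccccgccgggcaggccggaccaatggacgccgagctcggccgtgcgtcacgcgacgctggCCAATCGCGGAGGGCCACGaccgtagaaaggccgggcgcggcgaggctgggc
HERPUD1: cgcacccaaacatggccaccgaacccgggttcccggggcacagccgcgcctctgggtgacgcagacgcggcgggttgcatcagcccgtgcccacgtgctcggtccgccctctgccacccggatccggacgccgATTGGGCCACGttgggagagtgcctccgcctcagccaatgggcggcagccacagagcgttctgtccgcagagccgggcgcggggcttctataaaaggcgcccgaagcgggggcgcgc
SDF2L1: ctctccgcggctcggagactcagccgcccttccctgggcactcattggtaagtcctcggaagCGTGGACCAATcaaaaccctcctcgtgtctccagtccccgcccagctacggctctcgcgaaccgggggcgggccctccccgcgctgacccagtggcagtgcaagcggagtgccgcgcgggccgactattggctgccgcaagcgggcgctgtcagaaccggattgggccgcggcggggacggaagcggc
In HSPA5 the element ran from 66 to 48 bases before the start, in XBP1 from 52 to 34, and in HSP90B1 one copy lay at 194 to 176 and another, on the opposite strand, at 89 to 71. The ERSE-II match began 117 bases before the HERPUD1 start and, on the opposite strand, 188 bases before the SDF2L1 start. In CALR, which is not printed, the longer element lay 225 to 207 bases before the start on the opposite strand. A match of letters is a description of the window and does not show that a factor bound there.

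Before the results, the arrays themselves need a description. All 14 probes were well above background on all 10 arrays, and none of their spots was saturated or marked as an outlier. The levels given below are log2 signals minus the 75th percentile of the same array, and they compare groups for 1 probe but not one gene with another. That 75th percentile was 1177 to 1402 on the 0 h and DMSO arrays, 1041 and 1173 on the luteolin arrays, 628 and 651 on the gefitinib arrays, and 540 and 865 on the arrays given both. After scaling, the median change of all genes from DMSO was 0.08 for luteolin, 0.22 for gefitinib and 0.16 for both. Markers of the line (KRT8, KRT18, EPCAM, VIM and CD44) were well above background on 10 of 10 arrays, while the fibroblast, leukocyte and endothelial genes DCN, PTPRC and VWF were so on 0 of 10. KLK3 and TMPRSS2, genes typical of prostate epithelium, were listed among genes low or absent in PC-3. Against that listing, 1 probe of KLK3 and the probe of TMPRSS2 were well above background on 10 of 10 arrays. Another of the 3 KLK3 probes was so on 0 arrays. Of the other markers of foreign cell types, CD68 and PECAM1 were so on 10 arrays, and COL1A1 and COL3A1 on 9. KRT8 (1.07), CD44 (1.05) and KLK3 (1.36) rose in gefitinib and COL1A1 fell by 2.22 there and by 1.54 in the combination, and their part in the results was not tested. The files of the 6 drug-treated arrays carry treatments in their names that differ from the labels: the luteolin arrays are named for gefitinib, the gefitinib arrays for both drugs, and the arrays labelled with both for luteolin. Groups follow the labels throughout and mean "labelled as". With the treatments of the file names, every change from a control given below for luteolin would belong to gefitinib, every one for gefitinib to the combination, and every one for the combination to luteolin. DNAJB9, HERPUD1 and XBP1 would then change sign in gefitinib and in the combination, and the comparisons between drugs and their interaction would change as well.

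Luteolin raised 5 of the 10 genes relative to DMSO, namely DNAJB9, HERPUD1, HSPA5, XBP1 and DNAJC3. A gene counted as raised or lowered when limma's adjusted p was under 0.05 and the change was at least 2-fold. By that rule 7.22% of the 19718 genes tested were raised and 6.17% lowered, and 0 of the 10 genes were lowered. At the adjusted p alone, 8 of the 10 were higher, where 14.3% of all genes were. The median change of the 10 genes was 1.09. Gefitinib raised 2 of the 10, PDIA4 and HSP90B1, where 15.6% of all genes were raised and 14.3% lowered, so its count was near the share. At the adjusted p alone 4 were higher, against 32.9% of all genes, and the median change of 0.23 was close to that of all genes. The combination raised 5, namely DNAJB9, HSPA5, XBP1, HERPUD1 and HSP90B1, where 12.1% of all genes were raised and 7.69% lowered. At the adjusted p alone 6 were higher, against 25.1% of all genes, and the median change was 0.82. With quantile normalization in place of the 75th percentile, luteolin raised 6, gefitinib 0 and the combination 2 of the 10 genes. At limma's adjusted p alone, quantile normalization put XBP1 (-0.77, adjusted p = 0.0177) and SDF2L1 (-0.59, adjusted p = 0.0219) lower in gefitinib, both under 2-fold. With the 75th percentile scaling, none of the 10 was lowered in any of the 3 groups. The number was 0 also at limma's unadjusted p and by the test of the study's methods. The combination count fell to 2 without either DMSO array (HSP90B1 and XBP1) and to 1 without combination replicate 2 (XBP1). The 3 comparisons share the DMSO arrays. In these whole cultures, fewer cells of a kind and less RNA per cell cannot be told apart.

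**Figure D1:**
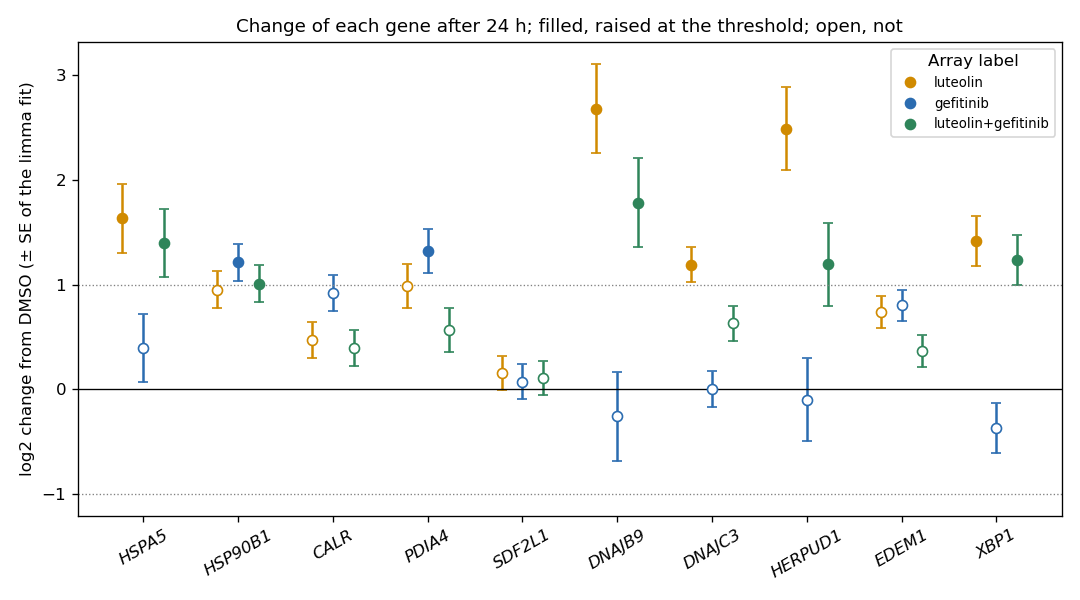
Change from DMSO of each of the 10 genes on the arrays labelled luteolin, gefitinib and both, as log2 with the standard error of the limma fit; filled points passed the threshold and dotted lines mark a 2-fold change. Luteolin values run from 0.16 (SDF2L1) to 2.68 (DNAJB9), and gefitinib values from -0.37 (XBP1) to 1.32 (PDIA4).

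XBP1 encodes the transcription factor that IRE1 activates. The files place its brighter probe at chr22:27520733-27520792 of hg18. Its level was 2.98 and 3.32 at 0 h, 3.12 and 3.23 in DMSO, 4.55 and 4.64 in luteolin, 3.13 and 2.48 in gefitinib, and 4.27 and 4.56 in the combination. After scaling, the luteolin and combination arrays were thus above all control arrays, and the gefitinib arrays reached from within the DMSO range to below it. Unscaled, both gefitinib signals (5696 and 3499) were under the lowest control (11075). The change from DMSO was 1.42 ± 0.24 (SE, n = 2, 2.68-fold, limma, adjusted p = 0.00445) in luteolin and 1.24 ± 0.24 (adjusted p = 0.00624) in the combination. In gefitinib it was -0.37 ± 0.24 (adjusted p = 0.216). A dimmer probe of XBP1, at chr22:27523106-27523165, gave 1.58 in luteolin, -0.36 in gefitinib and 1.16 in the combination. Quantile normalization gave -0.77 in gefitinib (adjusted p = 0.0177) and 0.93 in the combination (adjusted p = 0.0109), the latter under 2-fold.

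DNAJB9 and DNAJC3 are J-domain co-chaperones of HSPA5 in the ER lumen. The DNAJB9 level was 0.69 and 1.01 at 0 h, 0.62 and 0.84 in DMSO, 2.96 and 3.86 in luteolin, 1.11 and -0.17 in gefitinib, and 2.34 and 2.68 in the combination. Luteolin gave the highest levels, and after scaling the 2 gefitinib arrays lay on either side of the controls. Unscaled, both gefitinib signals (1408 and 558) were under the lowest control (2076). The change was 2.68 ± 0.43 (6.42-fold, limma, adjusted p = 0.00358) in luteolin, 1.78 ± 0.43 (3.44-fold, adjusted p = 0.0134) in the combination and -0.26 ± 0.43 (adjusted p = 0.631) in gefitinib. The DNAJC3 level was 0.71 and 0.58 at 0 h, 0.62 and 0.58 in DMSO, 1.73 and 1.85 in luteolin, 0.63 and 0.57 in gefitinib, and 1.41 and 1.06 in the combination. For this gene the gefitinib and control arrays overlapped after scaling, and the combination lay between them and luteolin. The unscaled signal was 2292 and 1759 at 0 h, 2069 and 1919 in DMSO, and 3878 and 3764 in luteolin. It was 1009 and 934 in gefitinib, and 2293 and 1123 in the combination. The steady gefitinib level and the intermediate combination level of DNAJC3 therefore rest on the scaling. DNAJC3 rose 2.28-fold in luteolin (1.19 ± 0.17, adjusted p = 0.00219). Its change of 0.63 ± 0.17 in the combination passed the adjusted p (0.0193) but not the 2-fold minimum. Probe positions in hg18 were chr7:108001751-108001810 for DNAJB9 and chr13:95214001-95214144 for DNAJC3.

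HSPA5, or BiP, is the main Hsp70 chaperone of the ER and holds the sensors inactive in unstressed cells. The files place its brighter probe at chr9:127039245-127040290 of hg18, a span of 1046 bases for a 60-base probe. Its level was 1.74 and 1.72 at 0 h, 1.37 and 1.39 in DMSO, 2.84 and 3.19 in luteolin, 2.34 and 1.20 in gefitinib, and 2.65 and 2.90 in the combination. After scaling, the luteolin and combination arrays were above every control array, and again the gefitinib arrays lay on either side. Unscaled, combination replicate 2 (4026) lay below 0 h replicate 1 (4689), and gefitinib (3303 and 1446) below all controls. HSPA5 rose by 1.63 ± 0.33 in luteolin (limma, adjusted p = 0.00915) and by 1.40 ± 0.33 in the combination (adjusted p = 0.0124). The luteolin call was lost without either DMSO array and without luteolin replicate 2, and the combination call without either DMSO array and without combination replicate 2. In gefitinib its change was 0.39 ± 0.33 (adjusted p = 0.333). The dimmer probe, at chr9:127036970-127037029, gave 1.85 in luteolin, 0.81 in gefitinib (adjusted p = 0.0743) and 1.99 in the combination.

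HSP90B1 (GRP94) is the Hsp90 of the ER, and PDIA4 a protein disulfide isomerase. The HSP90B1 level was 5.88 and 5.95 at 0 h, 5.61 and 5.59 in DMSO, 6.56 and 6.55 in luteolin, 6.91 and 6.71 in gefitinib, and 6.40 and 6.81 in the combination. The PDIA4 level was 1.87 and 1.92 at 0 h, 1.81 and 1.79 in DMSO, 2.81 and 2.77 in luteolin, 3.23 and 3.01 in gefitinib, and 2.05 and 2.68 in the combination. For both genes all 6 drug-treated arrays were, after scaling, above all 4 control arrays, and the scaled mean was highest in gefitinib. The unscaled PDIA4 signal was 4729 and 4432 in DMSO and 8214 and 7091 in luteolin. It was 6114 and 5048 in gefitinib, and 3591 and 3451 in the combination. Unscaled HSP90B1 was 82287 and 72532 at 0 h, 65753 and 61748 in DMSO, and 110366 and 97356 in luteolin. It was 78430 and 65577 in gefitinib, and 73247 and 60536 in the combination. Without scaling, both genes were thus highest in luteolin. HSP90B1 rose 2.32-fold in gefitinib (1.21 ± 0.18, limma, adjusted p = 0.00135) and by 1.01 ± 0.18 in the combination (adjusted p = 0.0044). Luteolin moved it by 0.95 ± 0.18 (adjusted p = 0.00668), just short of 2-fold. PDIA4 rose 2.50-fold in gefitinib (1.32 ± 0.21, adjusted p = 0.00199), with 0.99 ± 0.21 (adjusted p = 0.0118) in luteolin and 0.57 ± 0.21 (adjusted p = 0.0618) in the combination. Under quantile normalization the gefitinib changes were 0.34 (adjusted p = 0.0559) for HSP90B1 and 0.95 (adjusted p = 0.00408) for PDIA4, and the combination change of HSP90B1 was 0.35 (adjusted p = 0.061). With that normalization PDIA4 passed the threshold in luteolin and not in gefitinib. The probes lay at chr12:102865666-102865725 and chr7:148331837-148331896. A dimmer HSP90B1 probe, at chr12:102850322-102850788, gave 1.01, 1.12 and 1.04 in luteolin, gefitinib and the combination, all past the threshold.

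CALR, or calreticulin, is a lectin chaperone that binds sugar chains on new glycoproteins, and its probe lay at chr19:12916113-12916172. The CALR level was 5.00 and 5.18 at 0 h, 4.93 and 5.00 in DMSO, 5.43 and 5.44 in luteolin, 6.01 and 5.76 in gefitinib, and 5.21 and 5.51 in the combination. After scaling, all drug-treated arrays lay above the controls, but no group passed both criteria. The unscaled signal was 41222 and 41071 in DMSO, 41996 and 34001 in gefitinib, and 32089 and 24593 in the combination. The gefitinib change of 0.92 ± 0.17 passed the adjusted p alone (limma, 0.00356), and the luteolin change of 0.47 ± 0.17 did not (adjusted p = 0.0803). Under quantile normalization the gefitinib change of CALR was 0.09 (adjusted p = 0.607), and with the slide as a block it was 1.05 (adjusted p = 0.00778), past both criteria.

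HERPUD1 is a membrane protein of the ER that takes part in ERAD, and EDEM1 is a lectin that directs misfolded glycoproteins to it. The HERPUD1 level was 3.65 and 3.97 at 0 h, 3.57 and 3.79 in DMSO, 5.92 and 6.43 in luteolin, 4.27 and 2.90 in gefitinib, and 4.76 and 4.99 in the combination. After scaling, luteolin and combination arrays did not overlap with each other or with the controls, while the gefitinib arrays spanned the control range. The unscaled signal was 17571 and 18433 at 0 h, 16050 and 17793 in DMSO, and 70990 and 89557 in luteolin. It was 12520 and 4704 in gefitinib, and 23505 and 17191 in the combination. The place of combination replicate 2 above the controls therefore rests on the scaling. HERPUD1 rose 5.62-fold in luteolin (2.49 ± 0.40, limma, adjusted p = 0.00358) and 2.29-fold in the combination (1.20 ± 0.40, adjusted p = 0.042). The combination value lost the call under 13 of 22 alternatives, among them quantile normalization (0.81, adjusted p = 0.0987), the replicate block, no filter on dim probes, and leaving out either DMSO array or either 0 h array. The probe lay at chr16:55535201-55535260.

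The EDEM1 level at its brighter probe (chr3:5232754-5232814) was -2.01 and -2.08 at 0 h, -1.68 and -1.76 in DMSO, -0.95 and -1.01 in luteolin, -0.81 and -1.03 in gefitinib, and -1.42 and -1.29 in the combination. After scaling, all drug-treated arrays were above all control arrays at this probe. The unscaled signal was 421 and 380 in DMSO, 607 and 516 in luteolin, 372 and 308 in gefitinib, and 324 and 221 in the combination. The place of the gefitinib and combination arrays above DMSO at this probe therefore rests on the scaling. Its changes of 0.74 ± 0.15 in luteolin (limma, adjusted p = 0.0103) and 0.80 ± 0.15 in gefitinib (adjusted p = 0.00372) passed the adjusted p alone. The 2 probes of EDEM1 disagreed. At the dimmer one (chr3:5235840-5235899) the level was -2.57 and -2.50 in DMSO, -1.17 and -1.25 in luteolin and -2.10 and -2.36 in gefitinib. That probe gave a rise of 1.33 ± 0.17 in luteolin (adjusted p = 0.00164) and a change of 0.30 ± 0.17 in gefitinib (adjusted p = 0.169).

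SDF2L1 is an ER-resident partner of the HSPA5 co-chaperones, measured at chr22:20328511-20328570. Its level was 4.77 and 4.71 at 0 h, 4.63 and 4.78 in DMSO, 4.70 and 5.03 in luteolin, 4.79 and 4.77 in gefitinib, and 4.76 and 4.87 in the combination. All groups overlapped with the controls, and the changes from DMSO were 0.16 ± 0.17 in luteolin (limma, adjusted p = 0.529), 0.07 ± 0.17 in gefitinib (adjusted p = 0.721) and 0.11 ± 0.17 in the combination (adjusted p = 0.618). The unscaled SDF2L1 signal was 33502 and 35148 in DMSO, 18029 and 17103 in gefitinib, and 23396 and 15769 in the combination, so its steady level rests on the scaling to each array. Quantile normalization gave -0.59 in gefitinib (adjusted p = 0.0219).

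**Figure D2:**
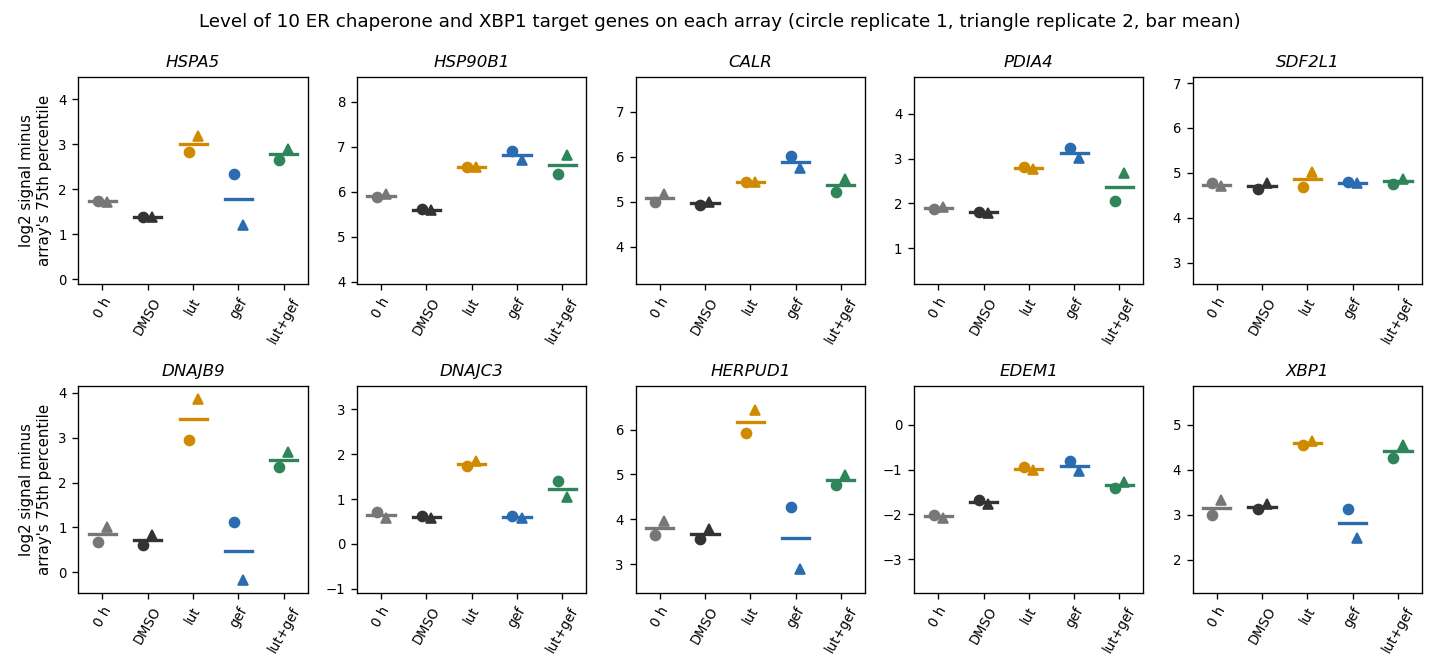
Level of each gene on every array, as log2 signal minus the 75th percentile of the array, with 1 panel per gene and the same height of axis; circles are replicate 1, triangles replicate 2 and bars group means (lut, luteolin, gef, gefitinib). The 2 gefitinib arrays stand apart in DNAJB9 (1.11 and -0.17), HERPUD1 (4.27 and 2.90), HSPA5 (2.34 and 1.20) and XBP1 (3.13 and 2.48), and lie close together in DNAJC3 and SDF2L1.

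The 2 gefitinib arrays differed for 4 of the genes. Replicate 1 exceeded replicate 2 in unscaled signal, with 12520 against 4704 for HERPUD1, 1408 against 558 for DNAJB9, 3303 against 1446 for HSPA5 and 5696 against 3499 for XBP1. The 75th percentiles of the 2 arrays were nearly equal. The arrays sat on 3 slides, each scanned at its own time. Gefitinib replicate 1 shared a slide with DMSO replicate 1, and replicate 2 shared its slide only with 0 h replicate 1. Against the DMSO array on the same slide, gefitinib replicate 1 was higher by 0.69 for HERPUD1, 0.49 for DNAJB9 and 0.97 for HSPA5, and by 0.01 for XBP1. With the slide as a block in the limma fit, the gefitinib changes were 0.35 (adjusted p = 0.408), 0.21 (adjusted p = 0.663), 0.68 (adjusted p = 0.138) and -0.10 (adjusted p = 0.695). The sign of the gefitinib change was therefore not settled for HERPUD1 and DNAJB9, nor for HSPA5, whose change ran from -0.18 to 0.96 over the alternatives tried. Within slides, luteolin exceeded DMSO on both slides that held the pair for all 5 genes it raised, by 2.34 and 3.03 for DNAJB9, 2.35 and 2.63 for HERPUD1, 1.47 and 1.80 for HSPA5, 1.43 and 1.41 for XBP1, and 1.11 and 1.27 for DNAJC3. The combination exceeded DMSO on both slides as well, by 1.72 and 1.84 for DNAJB9 and by 1.19 and 1.20 for HERPUD1.

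Luteolin was then set against gefitinib directly. DNAJB9, HERPUD1, XBP1, HSPA5 and DNAJC3 were higher in luteolin, by 2.94 ± 0.43, 2.59 ± 0.40, 1.79 ± 0.24, 1.24 ± 0.33 and 1.19 ± 0.17 (limma, adjusted p from 0.000509 to 0.0116). These were 5 of 10 genes, where 36.6% of all genes passed the threshold in one direction or the other. PDIA4, HSP90B1, CALR and EDEM1 had lower means in luteolin than in gefitinib, by -0.33, -0.26, -0.45 and -0.06, and none of these passed. The dimmer EDEM1 probe went the other way and passed the threshold (1.03 ± 0.17, limma, adjusted p = 0.00146). The HSPA5 difference missed the threshold with the slide as a block (0.96, adjusted p = 0.0508).

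The combination was compared with each drug alone to see what the other drug added. Against gefitinib, DNAJB9 (2.04 ± 0.43, limma, adjusted p = 0.00526), XBP1 (1.61 ± 0.24, adjusted p = 0.00104), HERPUD1 (1.29 ± 0.40, adjusted p = 0.0274) and HSPA5 (1.00 ± 0.33, adjusted p = 0.0348) were higher in the combination. These 4 of 10 genes stood beside 27% of all genes. With the slide as a block only DNAJB9 and XBP1 kept the call among them, and without gefitinib replicate 2 or without combination replicate 1 the count was also 2. At limma's adjusted p alone, DNAJC3 was also higher in the combination than in gefitinib (0.63 ± 0.17, adjusted p = 0.0155). PDIA4 (-0.75 ± 0.21, adjusted p = 0.0194), CALR (-0.52 ± 0.17, adjusted p = 0.0365) and EDEM1 (-0.43 ± 0.15, adjusted p = 0.0458) were lower. The dimmer EDEM1 probe gave 0.01. Against luteolin, HERPUD1 was the 1 gene of 10 past the threshold, where 21% of all genes were. HERPUD1 fell by 1.29 ± 0.40 (adjusted p = 0.0314), which left its level between those of DMSO and luteolin. That call was lost without either luteolin array, without either combination array and without DMSO replicate 2. DNAJC3 was lower in the combination than in luteolin at the adjusted p alone (-0.56 ± 0.17, adjusted p = 0.0294).

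The interaction of the drugs was the change in the combination minus the sum of the changes in luteolin and in gefitinib. It was called at the adjusted p alone, and 34.2% of all genes passed, a share near the 4 of 10 genes called here. PDIA4 (-1.74 ± 0.30, limma, adjusted p = 0.00349), EDEM1 (-1.17 ± 0.22, adjusted p = 0.00466), HSP90B1 (-1.16 ± 0.25, adjusted p = 0.00914) and CALR (-0.99 ± 0.24, adjusted p = 0.0156) passed, all with less in the combination than the sum. With the treatments of the file names, HSP90B1 (-0.75) stayed among the calls, PDIA4 (-0.24), EDEM1 (-0.30) and CALR (0.05) did not, and HSPA5, DNAJB9, DNAJC3, HERPUD1 and XBP1 passed instead. The CALR call was also lost without either DMSO array and without luteolin replicate 2. For PDIA4 the single changes of 0.99 and 1.32 stood against 0.57 in the combination. For XBP1 the interaction was 0.19 ± 0.34 (adjusted p = 0.684), with -0.06 at the dimmer probe and -0.08 with the slide as a block, and for DNAJB9 -0.64 ± 0.60 (adjusted p = 0.432). The median interaction was -0.82 for the 10 genes and -0.16 for all genes. At the dimmer probe of HSP90B1 the interaction was -1.09 (adjusted p = 0.0906), and with the slide as a block HERPUD1 passed as well (-1.65, adjusted p = 0.0355).

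**Figure D3:**
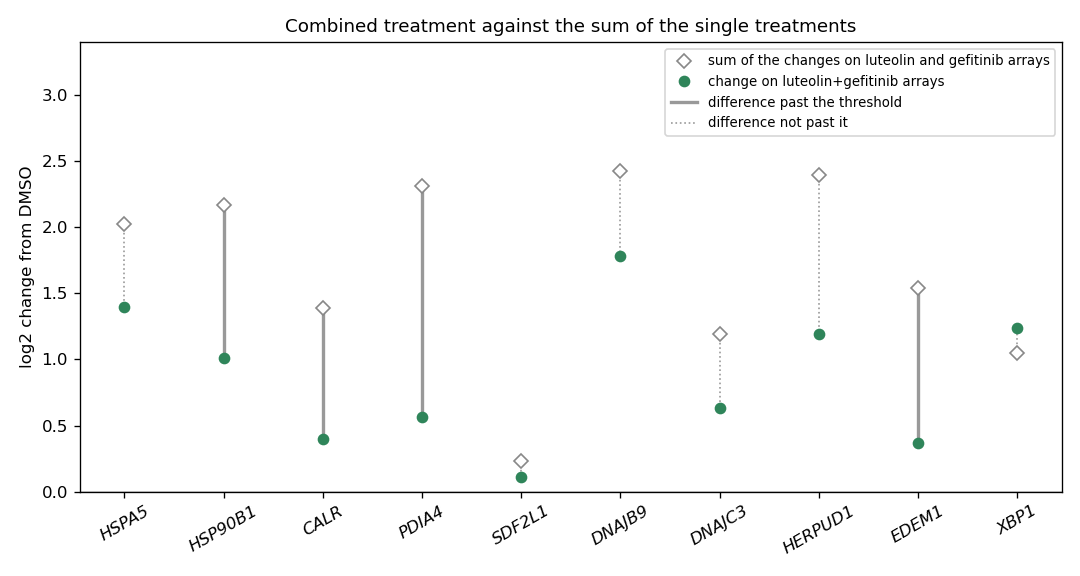
For each gene, the sum of the log2 changes from DMSO in luteolin and in gefitinib (open diamond) and the change in the combination (green circle); thick lines join pairs whose difference passed the threshold, dotted lines pairs that did not. The gap was widest for PDIA4 (-1.74), and for XBP1 (0.19 ± 0.34) it was smaller than its SE.

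Solvent and time in culture were compared as DMSO against 0 h. None of the 10 genes passed (limma, 0 at an unadjusted p), beside 0.0355% of all genes, while the test of the study's methods put 2 lower in DMSO at an unadjusted p. Changes ran from -0.35 ± 0.33 (HSPA5) to 0.33 ± 0.15 (EDEM1). With 0 h as the reference, luteolin raised 6 genes, DNAJB9 (2.56), HERPUD1 (2.36), XBP1 (1.44), HSPA5 (1.28), DNAJC3 (1.15) and EDEM1 (1.06), where 8.26% of all genes were raised and 7.85% lowered. Gefitinib raised PDIA4 (1.23) and EDEM1 (1.13), where 14.5% of all genes were raised and 14.5% lowered, so its count was near the share. The dimmer EDEM1 probe gave 0.41 there (limma, adjusted p = 0.0777). Unscaled, the brighter EDEM1 probe read 348 and 278 at 0 h and 372 and 308 in gefitinib. The combination raised DNAJB9 (1.66), XBP1 (1.26) and HSPA5 (1.04), where 11.5% were raised and 8.32% lowered. The combination count fell to 1 without either 0 h array and without combination replicate 2. HERPUD1 missed the threshold there (1.07 ± 0.40, limma, adjusted p = 0.0607). None of the 10 genes was lowered in any drug-treated group against 0 h (limma, 0 also at an unadjusted p and 0 by the test of the study's methods). The mean EDEM1 level was lower at 0 h than in DMSO, and EDEM1 was called against 0 h and not against DMSO.

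The other genes of the pathway were described from fixed lists. The list of unfolded protein response sensors has 6 genes. ERN1 (IRE1) rose in luteolin (1.85 ± 0.28, limma, adjusted p = 0.00298), gefitinib (1.28 ± 0.28, adjusted p = 0.00645) and the combination (1.42 ± 0.28, adjusted p = 0.0067). EIF2AK3 (PERK) rose in luteolin (1.51 ± 0.18, adjusted p = 0.0012), with -0.18 in gefitinib and 0.38 in the combination. ATF6 (0.19, 0.01 and -0.67), ATF6B (0.23, 0.75 and -0.06) and the proteases that cut ATF6, MBTPS1 (0.42, 0.08 and -0.24) and MBTPS2 (-0.09, 0.02 and -0.23), stayed under 2-fold in luteolin, gefitinib and the combination.

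Of 18 further ER chaperones and folding enzymes, luteolin raised 6, gefitinib 3 and the combination 1, and none was lowered. The shares of all genes raised were 7.22%, 15.6% and 12.1%, and those lowered 6.17%, 14.3% and 7.69%. The gefitinib count was thus near its share, and the combination count below it. In luteolin the 3 largest rises among genes well above background on all arrays were PDIA5, a disulfide isomerase (1.49 ± 0.18), DNAJC10, a J-domain reductase (1.38 ± 0.18), and HYOU1, an Hsp70-like chaperone (1.32 ± 0.20). In gefitinib the genes raised were CANX, the membrane-bound partner of CALR (1.34 ± 0.19), PPIB, a prolyl isomerase (1.04 ± 0.24), and P4HB, the founding disulfide isomerase (1.04 ± 0.17). CANX was also the gene raised in the combination (1.00 ± 0.19). The list medians of 0.80, 0.74 and 0.44 stood beside medians of all genes of 0.08, 0.22 and 0.16. Under quantile normalization the list had 6 raised in luteolin, 0 in gefitinib and 0 in the combination.

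Of 18 ERAD and translocation genes, luteolin raised 6, gefitinib raised 3 and lowered 3, and the combination raised 2. Among all genes, 7.22%, 15.6% and 12.1% were raised in these groups, and 6.17%, 14.3% and 7.69% lowered. The gefitinib and combination counts were thus near those shares. The list median was 0.72, 0.38 and 0.39, beside 0.08, 0.22 and 0.16 for all genes. SYVN1, the ubiquitin ligase also called HRD1, moved by 1.26 ± 0.23 in luteolin and -1.29 ± 0.23 in gefitinib. EDEM3, a relative of EDEM1, moved by 1.27 ± 0.20 and -1.22 ± 0.20, and the lectin ERLEC1 by 1.08 ± 0.24 and -1.14 ± 0.24. Each of these 3 genes passed the threshold in both groups. SELENOS rose in all 3 groups (1.59, 1.03 and 1.20), and DERL3, a derlin of the ER membrane, rose in gefitinib (1.26 ± 0.21) and the combination (1.07 ± 0.21). SEC24D, a coat protein of vesicles leaving the ER, rose in luteolin (1.35 ± 0.23). Under quantile normalization gefitinib raised 1 and lowered 3 of the list, and the combination raised 0 and lowered 1.

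Of 9 genes of the PERK arm, luteolin raised 9, gefitinib 3 and the combination 4, where 7.22%, 15.6% and 12.1% of all genes were raised. TRIB3, a pseudokinase (3.11 ± 0.32), DDIT3, the transcription factor CHOP (2.86 ± 0.49), and DDIT4 (2.23 ± 0.32) rose most in luteolin. In gefitinib the rises were in ATF3 (3.14 ± 0.43), PPP1R15A, which restores translation (2.33 ± 0.34), and DDIT4 (1.44 ± 0.32). ATF3 (2.60 ± 0.43) and DDIT4 (2.06 ± 0.32) also led in the combination. The list median was 2.20, 0.50 and 1.26 in the 3 groups, and the gefitinib median was -0.07 under quantile normalization.

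Chaperones outside the ER were listed for contrast, 11 measured genes that include the mitochondrial HSPD1 and HSPE1. None was raised in any group by limma at the 2-fold threshold, where 7.22%, 15.6% and 12.1% of all genes were. HSP90AA1 fell by 1.24 on the log2 scale in luteolin, and BAG3 and DNAJB1 fell by 1.57 and 1.39 in gefitinib. The list median was -0.72 in luteolin, -0.26 in gefitinib and -0.12 in the combination (-0.78, -0.86 and -0.75 under quantile normalization), beside 1.09, 0.23 and 0.82 for the 10 ER genes.

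**Figure D4:**
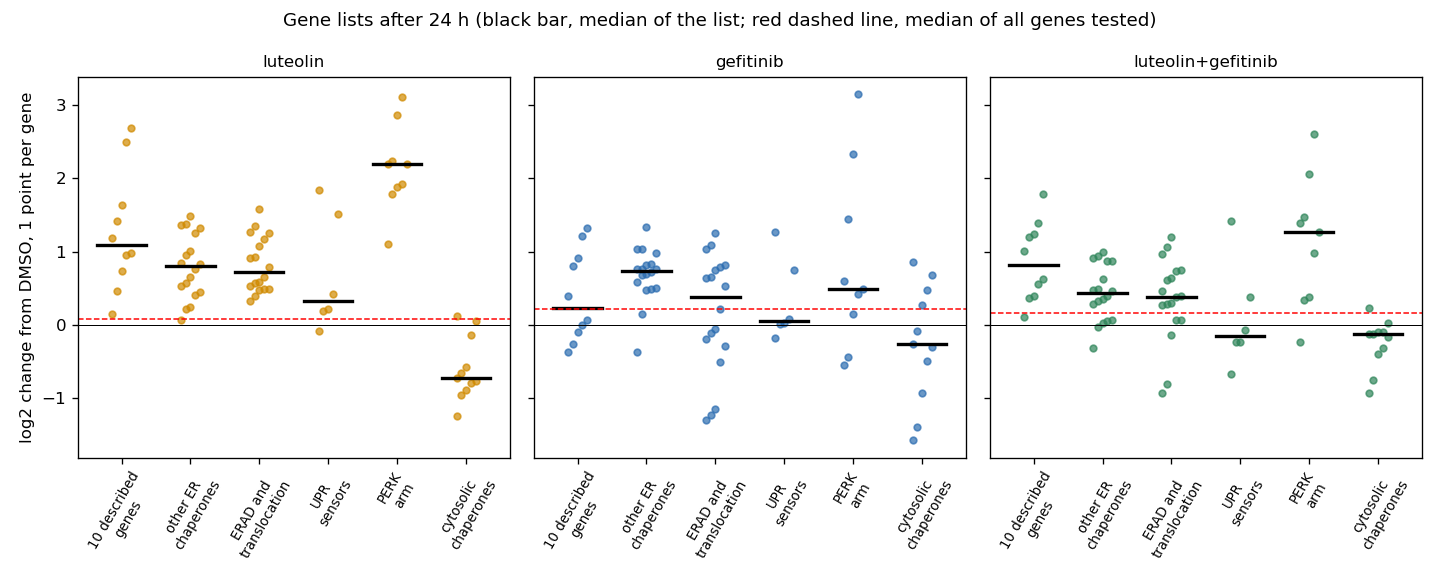
Change from DMSO in each drug-treated group for the 10 genes described and for 5 related lists, 1 point per gene, on a log2 scale; black bars are list medians and the dashed red line is the median of all genes tested. The PERK arm (median 2.20) stands highest in luteolin, and chaperones outside the ER lie at or below 0 for the most part.

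The 2 promoter elements also marked genes outside the set. Of the 25 genes with the longer element, 16 were measured, the 4 described here and 12 others. Of those 12, luteolin raised ERO1B and SERP1, gefitinib raised CANX and SYNPO and lowered 1 gene, and the combination raised CANX, FICD and SYNPO. The median change of the 12 was 0.54 in luteolin, 0.53 in gefitinib and 0.58 in the combination. For all genes it was 0.08, 0.22 and 0.16, with 7.22%, 15.6% and 12.1% raised and 6.17%, 14.3% and 7.69% lowered. Of 14 measured genes with ERSE-II, 12 were outside the set. Among them luteolin raised HYOU1 and lowered 1 gene, gefitinib raised CAMTA1 and lowered 1, and the combination moved none past the threshold. Their median change was 0.08 in luteolin, 0.24 in gefitinib and -0.15 in the combination. SDF2L1 carried the shorter element and did not pass the test in any group, while HERPUD1, with the same element, rose 5.62-fold in luteolin.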

How the data were processed

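The authors hybridized Cy3-labelled RNA to Agilent 4x44K arrays and deposited the scanner output, 1 file per array, made per the file headers with Agilent Feature Extraction 10.7.3.1. The deposited intensity of each spot (the processed signal) is background-subtracted and was not yet scaled between arrays. A deposited table of values repeated the same intensity for 43376 of 43376 non-control spots. Here each array was taken as log2 and the 75th percentile of its non-control spots subtracted, outlier spots were left out, and spots of 1 probe were averaged. A probe was kept if some group had it well above background on each of its arrays (28776 probes for 19718 genes), and each gene was read from its brightest probe. All 5 groups were fitted together with limma 3.58.1 in R 4.3.3, with p-values adjusted by Benjamini-Hochberg over all probes kept and the fit's error pooled (5 residual degrees of freedom). The script was tested on simulated data. The methods' comparison of groups was a 1-sample t-test, tried as an alternative beside other scalings, filters, blocks and omissions of single arrays. No value column was left unused for lack of a label.

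All 10 genes are reported with their value on every array. From the related lists, the text names all sensors and up to 3 of the largest rises and falls per list and group past the threshold. Genes named for a promoter motif were chosen after their values were seen. Genes and lists were chosen with earlier results of these data known. Promoter windows came from RefSeq tables of GRCh38.p14 and probe positions from the scanner files (hg18). Some marker genes are not reported here.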

Additional observations from a re-analysis of the deposited data

Results flagged for a closer look

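In 4 of the 10 genes the effect of one drug differed with the other drug present, by limma's test of the interaction on the log2 scale. That count was near the share of all genes tested that passed the same test, 34.2%. The values were -1.74 for PDIA4 (adjusted p = 0.00349), -1.17 for EDEM1 (adjusted p = 0.00466), -1.16 for HSP90B1 (adjusted p = 0.00914) and -0.99 for CALR (adjusted p = 0.0156). With the treatments of the file names, HSP90B1 alone of these 4 kept the call. CALR also lost it without either DMSO array and without luteolin replicate 2, and HSP90B1 at its dimmer probe. Groups of 2 arrays were not searched for single outlying values.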

How the results depend on the processing

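The counts of genes lowered in a drug-treated group against DMSO or 0 h, and of genes past the threshold between DMSO and 0 h, were 0 under all 24 alternatives. With the treatments of the file names, gefitinib raised 5 genes against DMSO and 6 against 0 h, the combination 2 against DMSO, and luteolin 3 against 0 h, while 4 genes differed between combination and luteolin and 1 between luteolin and gefitinib. Under those names the gefitinib changes were 2.68 for DNAJB9, 2.49 for HERPUD1 and 1.42 for XBP1, and the combination changes -0.26, -0.10 and -0.37, all opposite in sign to the values by label. Quantile normalization gave 0 raised in gefitinib and 2 in the combination against DMSO, and 1 each against 0 h. Without a minimum fold the counts raised against DMSO were 8 in luteolin and 4 in gefitinib, those against 0 h were 4 in gefitinib and 6 in the combination, and the combination differed from luteolin in 2 genes and from gefitinib in 8. With no filter on dim probes the combination differed from luteolin in 0 genes and from gefitinib in 2, and from gefitinib in 2 also with the slide as a block or with only the compared groups fitted. With probes of 1 gene summarised by their median, gefitinib raised 1 against 0 h. The methods' t-test, unadjusted, gave 2 raised in luteolin against DMSO and 3 against 0 h, 2 between luteolin and gefitinib, and 0 in the other comparisons named here. After Benjamini-Hochberg adjustment, chosen after seeing the data, it gave 0 in each. At the dimmer probe, also chosen after seeing the data, gefitinib raised 1 against 0 h and the combination differed from luteolin in 2. Leaving out 1 array at a time, the combination raised 1 to 5 genes against DMSO and 1 to 4 against 0 h, and differed from luteolin in 0 to 1 and from gefitinib in 2 to 4; an arm left with 1 array is assumed to vary like the others. With the replicate block, 5, 2 and 4 genes were raised by luteolin, gefitinib and the combination against DMSO, where HERPUD1 lost its call in the combination, and no count moved by over 1.5 times. Deviations of same-numbered arrays correlated from -0.10 to 0.29, over 0.1 in 6 of 10 pairs of groups, and were not treated as paired. Most same-numbered arrays share a slide and scan, which the slide block covers. The interaction was called in 6 genes with the treatments of the file names and in 3 to 6 without single arrays. Of the alternatives for single-gene changes, 622 kept their side of the threshold, 52 lost a call, 10 gained one and 6 reversed. The cause of these shifts was not tested. Only 2 arrays per group limit all of these tests, although all 14 probes lay well above background.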
